A study of Caenorhabditis elegans with 43 samples.

Results

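The RNA of 5 collagen genes that Caenorhabditis elegans uses late in larval life was followed by the hour in 4 strains: bli-1, bli-2, col-38, col-49 and col-63. They were taken by symbol, as 5 of the 20182 gene rows of the deposited count table, and all 5 passed the filter on low values. In the WBcel235 annotation, bli-1 (WBGene00000251) lies on chromosome II from 10708960 to 10712156 on the plus strand, with 5 exons and 948 codons. bli-2 (WBGene00000252) lies on II from 5651394 to 5652434 on the minus strand, with 2 exons and 311 codons. col-38 (WBGene00000615) lies on II from 8568035 to 8569088 on the minus strand and has 287 codons. col-49 (WBGene00000626) lies on chromosome I from 3137185 to 3138447 on the plus strand and has 283 codons, and col-63 (WBGene00000639) on I from 8243694 to 8244963 on the minus strand, with 381 codons. Each has 1 annotated transcript. The exons of bli-1 share 7 bases with those of dph-2 on the opposite strand, which stood at 24.9 to 43.7 CPM (counts scaled by library size) in all libraries, and bli-2 overlaps zyg-1 without a shared exon base.

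The nematode cuticle is a collagen matrix that the epidermis secretes anew before each molt, and each stage has its own set of collagens. BLI-1 and BLI-2 belong to the struts, the columns that join the inner and outer layers of the adult cuticle across a fluid-filled space, and animals that lack either form blisters. The adult cuticle is made by fourth-stage larvae before their last molt. The microRNA let-7 ends larval programmes at about that time by repressing lin-41, which encodes a TRIM-NHL protein that binds RNA.

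The mutant strains were let-7(n2853) (10 libraries), which carries a temperature-sensitive change in let-7, lin-41(xe11) (11), in which the stretches of lin-41 RNA that pair with let-7 are changed, and lin-41(xe11);let-7(n2853), which carries both changes and is called the double mutant here (11). They were set against the wild type N2 (11). Worms grown from arrested first-stage larvae at 25 °C were sampled whole every 2 h from 18 to 38 h, or to 36 h for let-7(n2853), with 1 library per strain and hour. Libraries held 11.2 to 32.9 M counts, and those of let-7(n2853) were the deepest as a strain, at 22.9 to 32.9 M against 12.6 to 16.1 M in N2; nothing in the labels says if their preparation was separate, so a batch and that strain cannot be told apart. Levels are CPM after TMM scaling. Because RNA came from whole animals, fewer epidermal cells and less RNA per cell cannot be told apart.

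In N2 all 5 RNAs were scarce at 18 h and reached their highest levels at 34 or 36 h. From 18 to 38 h, bli-1 stood at 0.187, 0.335, 0.525, 1.45, 2.74, 1.66, 21.4, 819, 1954, 1616 and 531 CPM. bli-2 stood at 1.12, 2.07, 3.94, 13.4, 22.5, 19.4, 12.4, 383, 1044, 975 and 335 CPM at the same hours. Both strut collagens thus had their highest value at 34 h and had dropped to 27.2% and 32.1% of it by 38 h.

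The 3 numbered collagens came slightly later. In N2, col-38 stood at 4.61, 6.36, 4.66, 7.44, 15.6, 20.9, 17.9, 715, 4603, 5457 and 3787 CPM from 18 to 38 h. col-49 stood at 1.18, 2.01, 2.10, 2.82, 7.10, 10.8, 3.82, 87.3, 1196, 1545 and 1119 CPM, and col-63 at 0.311, 0.335, 0.197, 0.0689, 0.498, 0.192, 0.225, 75.1, 1398, 1785 and 1199 CPM. All 3 peaked at 36 h, and at 38 h they were still at 69.4%, 72.4% and 67.2% of their peaks. Onset was set at the first hour with at least 10% of a gene's highest N2 value. It fell at 32 h for bli-1, bli-2 and col-38 and at 34 h for col-49 and col-63 in N2. bli-1 had already reached 21.4 CPM at 30 h, when col-63 was represented by 3 counts.

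Per kilobase of exon, the N2 peak levels were 5893 CPM for col-38, 1694 for col-49, 1462 for col-63, 1050.3 for bli-2 and 649 for bli-1. By CPM at its peak, col-38 was first among the 133 collagen genes tested, with bli-1 at rank 18, col-63 at 22, col-49 at 27 and bli-2 at 45. The change with time was called (edgeR quasi-likelihood test of a spline over hours, adjusted p under 0.05) for 5 of 5 genes in N2, with adjusted p between 0.000166 and 0.0009, where 50.7% of all 13295 genes tested were called. The hours are single libraries, and the labels do not say whether they come from separate cultures, so p-values cover the spread among these samples, which may be technical. In the strain comparisons below, the hours of a window stand for replicates, so that spread also holds changes of a strain difference between hours. For col-38, the log2 difference of let-7(n2853) from N2 was 0.137 at 28 h and -7.235 at 32 h.

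**Figure D1:**
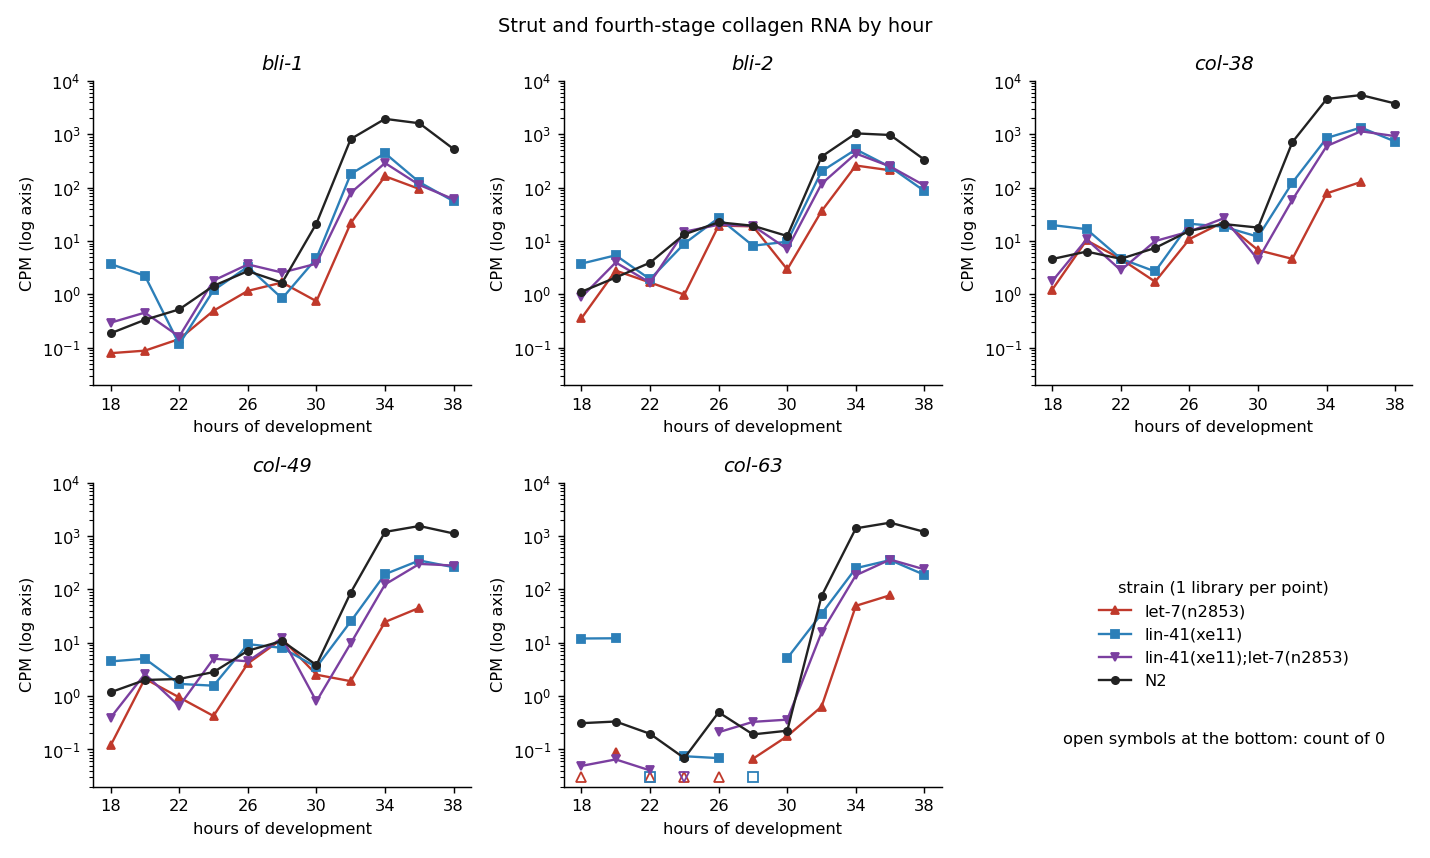
CPM (log axis) of each of the 5 collagen RNAs against hours of development in let-7(n2853), lin-41(xe11), lin-41(xe11);let-7(n2853) and N2, with 1 library per point; open symbols mark a count of 0. From 32 h on every mutant point lies under the N2 point of its hour, and the lin-41(xe11) points of 18 and 20 h lie above the other strains.

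A low first hump preceded the main rise of bli-2, col-38 and col-49. bli-1 had a fainter one, with 1.45, 2.74 and 1.66 CPM at 24, 26 and 28 h in N2. bli-2, col-38 and col-49 reached 22.5, 20.9 and 10.8 CPM at 26 or 28 h in N2 and were lower again at 30 h. At 28 h, let-7(n2853) had 18.9 CPM of bli-2, 22.9 of col-38 and 11.8 of col-49, against 19.4, 20.9 and 10.8 CPM in N2. lin-41(xe11) had 8.18, 18.6 and 8.03 CPM and the double mutant 19.4, 26.8 and 12.3 CPM at that hour. For bli-1 the 28 h values were 1.67 CPM in let-7(n2853) and 1.66 CPM in N2. At 28 h, then, let-7(n2853) and the double mutant lay near or above N2 for these genes, and lin-41(xe11) lay below it.

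The 18 to 26 h window was compared strain by strain with 5 libraries per strain. No member was called in let-7(n2853) against N2 (edgeR; 0 of 5, 0 of 5 at an unadjusted p under 0.05, 1 by DESeq2 and 0 by limma), where 18.5% of all genes were called; the fitted log2 differences ran from -3.53 for col-63 to -0.52 for col-38. In the double mutant against N2, 0 of 5 were called (edgeR; 0 at an unadjusted p under 0.05, 0 by DESeq2 and 0 by limma), against 0.143% of all genes. In lin-41(xe11) against N2, 0 of 5 were called (edgeR; 1 at an unadjusted p under 0.05, 0 by DESeq2 and 0 by limma), against 0.0677% of all genes. Counts of col-63 in this window were 3 or fewer in all 5 libraries of let-7(n2853) and in all 5 of the double mutant, with a count of 0 at 18, 22, 24 and 26 h in let-7(n2853). A count of 0 there allows up to 3 counts, or 0.119 CPM at 18 h.

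The libraries labelled lin-41(xe11) at 18 and 20 h stood apart. col-63 had 12 and 12.2 CPM in them, against 0.311 and 0.335 CPM in N2, and a count of 0 at 22 h. bli-1 had 3.72 and 2.24 CPM against 0.187 and 0.335 CPM in N2, and col-38 had 20.0 and 16.7 CPM against 4.61 and 6.36 CPM. The same held for late RNAs at large: of 143 other genes that in N2 rose at least 50-fold between 18 to 20 h and 34 to 36 h, 135 were higher than in N2 at 18 h and 117 at 20 h, while at 22 h 38 were. The 143 genes were chosen in part by low values in the same N2 libraries of 18 and 20 h. At those hours 40 and 45 of the 143 were higher than in N2 in let-7(n2853), and 36 and 35 in the double mutant. The summed level of the 143 genes was 134 and 105 CPM in those libraries of lin-41(xe11) and 36.7 and 42.9 CPM in N2. At 134 CPM it amounted to 0.358% of the N2 level of 34 to 36 h. Without those libraries, the median log2 difference of the 5 genes between lin-41(xe11) and N2 at 18 to 26 h was -0.14, against 0.77 with them.

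In let-7(n2853) the late rise of all 5 collagens was a small part of that in N2. bli-1 stood at 1.67, 0.747, 21.7, 164 and 94.8 CPM from 28 to 36 h in let-7(n2853), and at 1.66, 21.4, 819, 1954 and 1616 CPM in N2. bli-2 stood at 18.9, 2.95, 36.5, 261 and 212 CPM in let-7(n2853), and at 19.4, 12.4, 383, 1044 and 975 CPM in N2. The strut collagens of let-7(n2853) peaked at 34 h like those of N2, at 8.40% of the N2 peak for bli-1 and 25.0% for bli-2.

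The numbered collagens were still lower in let-7(n2853). col-38 stood at 22.9, 6.76, 4.64, 78.4 and 128 CPM from 28 to 36 h in let-7(n2853), and at 20.9, 17.9, 715, 4603 and 5457 CPM in N2. col-49 stood at 11.8, 2.52, 1.91, 24.6 and 45.3 CPM in let-7(n2853), and at 10.8, 3.82, 87.3, 1196 and 1545 CPM in N2. col-63 stood at 0.0670, 0.178, 0.636, 49.4 and 77.9 CPM in let-7(n2853), and at 0.192, 0.225, 75.1, 1398 and 1785 CPM in N2. Their highest values were in the last library, of 36 h, at 2.35%, 2.93% and 4.36% of the N2 peaks, so a later peak in let-7(n2853) was outside the sampled hours. Only bli-2 reached the onset threshold in let-7(n2853), at 34 h.

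All 15 values of the 5 genes at 32, 34 and 36 h were lower in let-7(n2853) than in N2, at 0.648% to 25.0% of it. Over 28 to 36 h all 5 were called lower in let-7(n2853) than in N2 (edgeR, n = 5 libraries per strain). The log2 fold changes were -4.67 ± 0.54 for col-63, -3.92 ± 0.77 for col-38, -3.87 ± 0.45 for bli-1, -3.63 ± 0.65 for col-49 and -1.92 ± 0.41 for bli-2 (standard errors). The edgeR adjusted p lay between 6.27e-07 and 0.00114. In strain comparisons, fell and rose mean called lower and higher than in N2 over the same hours. The background was high, with 23% of all genes called and 12.6% called lower. The median over the 5 was -3.87 and that over all genes -0.02. These calls held without the libraries of any 1 hour, and were lost for bli-1, bli-2 and col-63 in the fit that did not pair strains by hour (adjusted p = 0.122, 0.447 and 0.164). That fit called 566 of all genes, against 3064 in the main fit. The rise within let-7(n2853) itself was called for bli-1, bli-2 and col-63 (29.5% of all genes), and had adjusted p = 0.0610 for col-38 and 0.0662 for col-49; both were called with a stiffer spline, by DESeq2, and without the library of 20 h or of 28 h. Without the library of 18 h, 2 of the 5 were called.

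**Figure D2:**
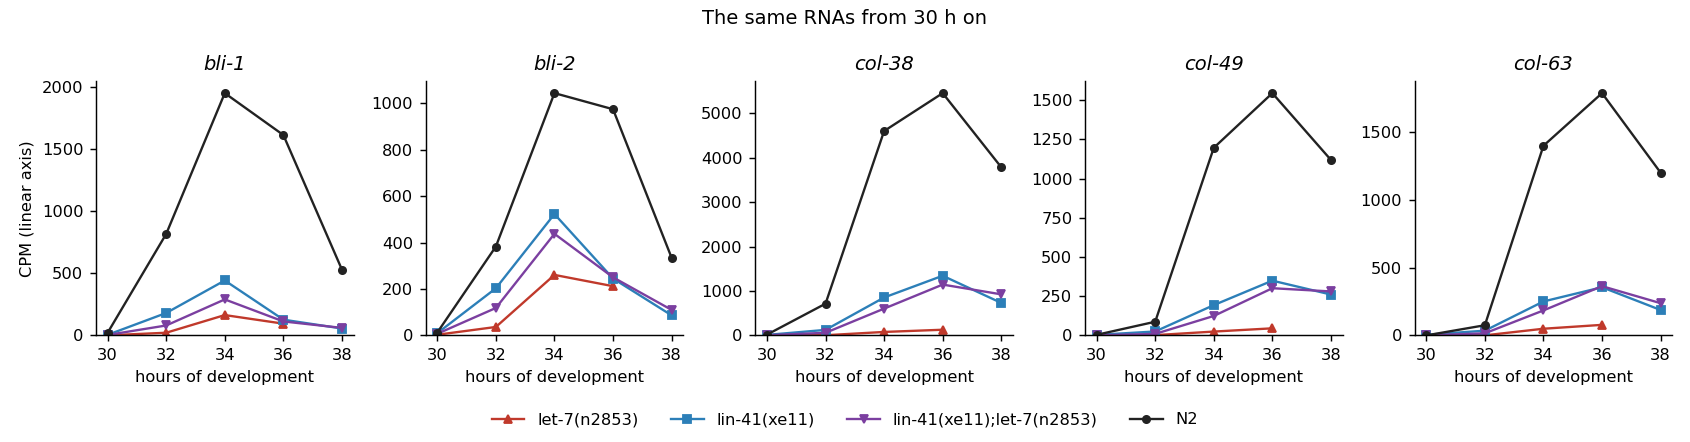
CPM (linear axis from 0, scaled by gene) of the 5 collagen RNAs from 30 to 38 h in let-7(n2853), lin-41(xe11), lin-41(xe11);let-7(n2853) and N2, with 1 library per point. bli-1 and bli-2 are highest at 34 h in every strain and the numbered collagens at 36 h, while the heights differ between strains.

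In lin-41(xe11), where let-7 itself is intact, the same RNAs peaked at the same hours and at 19.9% to 50.1% of the N2 peaks. bli-1 stood at 0.841, 4.75, 181, 443 and 127 CPM from 28 to 36 h in lin-41(xe11), against 1.66, 21.4, 819, 1954 and 1616 CPM in N2. bli-2 stood at 8.18, 9.75, 203, 523 and 245 CPM in lin-41(xe11), against 19.4, 12.4, 383, 1044 and 975 CPM in N2. At 38 h bli-1 had 55.8 CPM against 531 CPM in N2, which is 12.6% of its own peak in lin-41(xe11) and 27.2% in N2.

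Of the numbered collagens in lin-41(xe11), col-38 stood at 18.6, 12.1, 125, 854 and 1344 CPM from 28 to 36 h, against 20.9, 17.9, 715, 4603 and 5457 CPM in N2. col-49 stood at 8.03, 3.49, 25.2, 193 and 349 CPM in lin-41(xe11), against 10.8, 3.82, 87.3, 1196 and 1545 CPM in N2. col-63 stood at 0, 5.14, 35, 250.3 and 355 CPM in lin-41(xe11), against 0.192, 0.225, 75.1, 1398 and 1785 CPM in N2. The 30 h value of col-63 was the exception to the low levels, at 5.14 CPM in lin-41(xe11) against 0.225 CPM in N2. All 20 values from 32 to 38 h were lower than in N2, at 7.87% to 53.1% of it.

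Against N2 over 28 to 36 h, bli-1 alone was called lower in lin-41(xe11) (edgeR, -2.38 ± 0.42, adjusted p = 0.00423, n = 5 libraries per strain). Of all genes, 0.361% were called in that comparison. The other 4 had fitted log2 differences of -1.97 ± 0.64 for col-38, -1.87 ± 0.55 for col-49, -1.39 ± 0.49 for col-63 and -1.10 ± 0.39 for bli-2, with adjusted p from 0.15 to 0.285 and an unadjusted p under 0.05 in each case. The call of bli-1 was lost without the libraries of 34 h (-2.45, adjusted p = 0.0645) or 36 h (-2.01, 0.0780), and col-63 was called without those of 30 h (-1.93, 0.0369). The rise with time was called for 5 of 5 genes within the strain (44.6% of all genes). Without the libraries of 18 and 20 h of lin-41(xe11), bli-1 alone was still called.

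In the double mutant the 5 RNAs again rose late, and from 32 h on they stayed under the N2 levels. bli-1 stood at 2.57, 3.77, 80.3, 290.5 and 113 CPM from 28 to 36 h in the double mutant, and bli-2 at 19.4, 7.11, 118, 438 and 250.4 CPM. col-38 stood at 26.8, 4.50, 59.4, 604 and 1145 CPM, col-49 at 12.3, 0.798, 9.75, 124 and 301 CPM, and col-63 at 0.330, 0.363, 15.6, 184 and 363 CPM. At 38 h the double mutant had 60.9 CPM of bli-1, 110 of bli-2, 925 of col-38, 280.5 of col-49 and 238 of col-63. Its peaks came at the N2 hours and reached 14.9%, 41.9%, 21.0%, 19.5% and 20.3% of the N2 peaks for bli-1, bli-2, col-38, col-49 and col-63. All 20 values from 32 to 38 h were lower than in N2, at 6.98% to 41.9% of it.

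Of the 5 genes 3 were called lower in the double mutant than in N2 over 28 to 36 h (edgeR, n = 5 libraries per strain), against 0.888% of all genes called. They were bli-1 (-2.89 ± 0.44, adjusted p = 0.000395), col-49 (-2.43 ± 0.56, 0.0292) and col-63 (-2.30 ± 0.48, 0.0132). col-38 had -2.48 ± 0.66 (adjusted p = 0.0684) and bli-2 had -1.27 ± 0.40 (0.148). The call of bli-1 held without the libraries of any 1 hour. col-49 lost its call when the hour left out was 20 h (adjusted p = 0.0584), 26 h (0.0564), 32 h (0.151), 34 h (0.275) or 36 h (0.0837), with estimates between -2.46 and -2.05. That of col-63 was lost without those of 20 h (0.0517), 32 h (0.0506), 34 h (0.200) or 36 h (0.0591), with estimates between -2.34 and -2.01, and col-38 was called without those of 28 h (-2.80, 0.0211). Within the double mutant the change with time was called for 5 of 5 genes (41.5% of all genes).

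**Figure D3:**
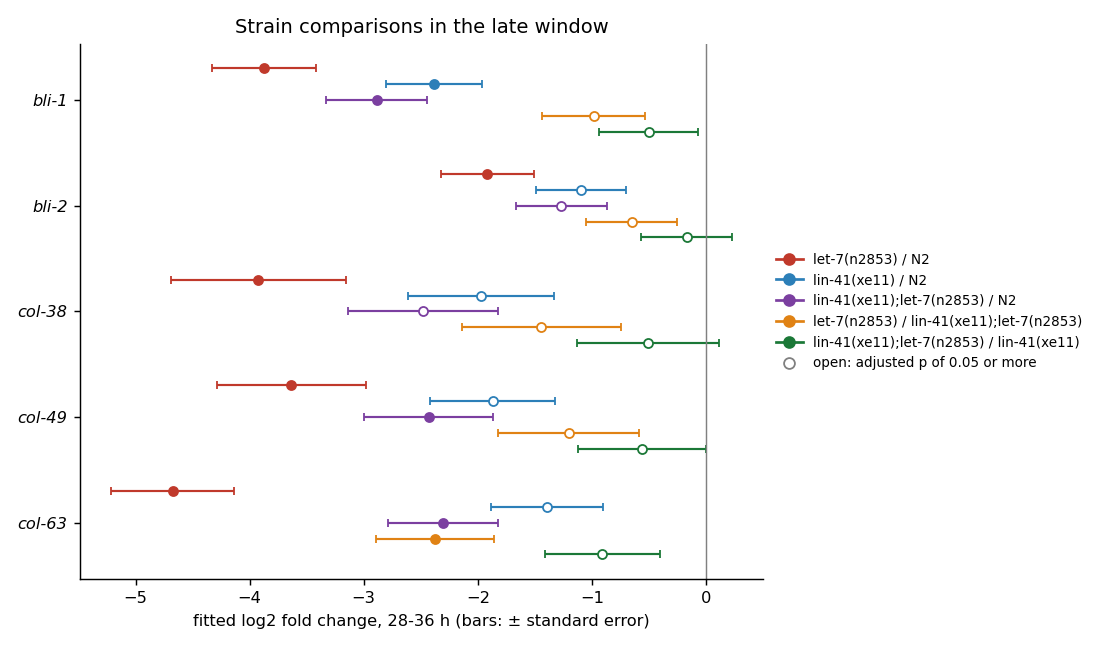
Fitted log2 fold changes over 28 to 36 h for 5 strain comparisons, by gene; bars are standard errors, filled points have an adjusted p under 0.05 (edgeR over 13295 genes). All 5 points of let-7(n2853) / N2 are filled and lie farthest to the left for each gene, and the points of the double mutant against lin-41(xe11) lie nearest to 0.

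Set directly against the double mutant, let-7(n2853) was lower at 32, 34 and 36 h for all 5 genes. At 36 h, let-7(n2853) had 128 CPM of col-38, 45.3 of col-49 and 77.9 of col-63, and the double mutant had 1145, 301 and 363 CPM. The strut collagens were closer at that hour, with 94.8 CPM of bli-1 and 212 of bli-2 in let-7(n2853) and 113 and 250.4 CPM in the double mutant. Only col-63 was called over 28 to 36 h (edgeR, -2.37 ± 0.52, adjusted p = 0.00141, n = 5 libraries per strain), where 23% of all genes were called. col-38 had -1.44 ± 0.70 (adjusted p = 0.144), col-49 -1.20 ± 0.62 (0.172), bli-1 -0.98 ± 0.45 (0.117) and bli-2 -0.65 ± 0.40 (0.263). The 28 h libraries, collected before the rise, bore on this: without them col-38 (-2.24, 0.0194), col-49 (-1.94, 0.0142) and bli-1 (-1.04, 0.0424) were called as well. The call of col-63 was lost by DESeq2 (-2.41, 0.0982) and limma (-1.65, 0.0885), and limma called col-38 instead (-1.78, 0.0428).

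The double mutant against lin-41(xe11) gave no call (edgeR; 0 of 5, 0 at an unadjusted p under 0.05, 0 by DESeq2 and 0 by limma), where 0.0903% of all genes were called. The fitted log2 differences ran from -0.91 ± 0.50 for col-63 to -0.17 ± 0.40 for bli-2. These values do not show that the strains were alike.

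Whether n2853 had the same effect in both lin-41 backgrounds was tested as a difference of differences. The fitted effect on all 5 genes was more negative where lin-41 was wild type, and 4 of 5 passed the test (edgeR, n = 5 libraries per strain), against 7.94% of all genes. The log2 difference between the effects was -3.77 ± 0.71 for col-63 (adjusted p = 0.00137), -3.41 ± 0.97 for col-38 (0.0285), -3.37 ± 0.61 for bli-1 (0.000937) and -3.07 ± 0.84 for col-49 (0.0232), and -1.75 ± 0.56 for bli-2 (0.0514). The calls of bli-1 and col-63 held without the libraries of any 1 hour. Those of col-38 and col-49 were lost without the libraries of 32 h (adjusted p = 0.124 and 0.0936), 34 h (0.142 and 0.146) or 36 h (0.14 and 0.16). bli-2 was called without those of 24 h (0.0257) or 28 h (0.0231).

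Whether each strain's difference from N2 was itself larger late than early was also tested. No member was called in let-7(n2853) (edgeR; 0 of 5, 3 at an unadjusted p under 0.05, 0 by DESeq2 and 0 by limma; 0.0827% of all genes), in lin-41(xe11) (0 of 5, 5 at an unadjusted p under 0.05, 0 by DESeq2 and 0 by limma; 0.0226%), or in the double mutant (0 of 5, 3 at an unadjusted p under 0.05, 0 by DESeq2 and 0 by limma; 0.00752%). The differences late minus early were negative for all 5 genes in all 3 mutants, with medians of -2.48 for let-7(n2853), -2.74 for lin-41(xe11) and -2.17 for the double mutant. Without the libraries of 28 h, 1 gene was called in let-7(n2853), and without those of 26, 28 or 30 h 1 was called in lin-41(xe11).

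To compare strains at like RNA profiles, each library was placed on the N2 time course by all tested genes except these 5. The 32, 34 and 36 h libraries of let-7(n2853) fell at 31.4, 32.9 and 34.6 h of N2, those of lin-41(xe11) at 32.2, 33.4 and 36.8 h and those of the double mutant at 32.0, 33.3 and 36.8 h. The let-7(n2853) libraries of 34 and 36 h were thus most like N2 of 1.1 and 1.4 h earlier. This age is a likeness of RNA and no separate measure of stage, as 23% of all genes were themselves called in let-7(n2853) late. Whether a delay accounts for the collagen differences was not tested. Set against N2 a whole step of 2 h earlier, let-7(n2853) at 34 h had 20.1% of the N2 level of 32 h for bli-1, 68.1% for bli-2, 11% for col-38, 28.1% for col-49 and 65.7% for col-63. The differences were wider a step later: let-7(n2853) at 36 h had 94.8 CPM of bli-1 against 1954 CPM in N2 at 34 h (4.85%). At the same hours col-38 had 128 against 4603 CPM (2.79%), col-49 had 45.3 against 1196 CPM (3.79%), col-63 had 77.9 against 1398 CPM (5.57%) and bli-2 had 212 against 1044 CPM (20.3%). With the age in place of the hour, all 5 genes were again called lower in let-7(n2853) (edgeR, log2 fold changes of -3.66 for col-63, -3.66 for bli-1, -3.28 for col-38, -2.90 for col-49 and -1.75 for bli-2, adjusted p of at most 0.000178).

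Early in the rise, the same shift of 2 h turned some differences of the other strains round. lin-41(xe11) at 34 h had 523 CPM of bli-2 against 383 CPM in N2 at 32 h, and 250.3 CPM of col-63 against 75.1 CPM. bli-1 remained lower in that comparison, with 443 CPM in lin-41(xe11) at 34 h and 290.5 CPM in the double mutant against 819 CPM in N2 at 32 h. The 34 h libraries compared here lay at 33.4 h of N2 in lin-41(xe11) and 33.3 h in the double mutant, between the N2 hours.

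The strut collagens changed unequally. In all libraries from 32 h on, counts of bli-1 over those of bli-2 were 0.595, 0.630 and 0.447 at 32, 34 and 36 h in let-7(n2853). They were 0.891, 0.847, 0.519 and 0.644 from 32 to 38 h in lin-41(xe11) and 0.679, 0.664, 0.450 and 0.553 in the double mutant, against 2.14, 1.87, 1.66 and 1.59 in N2. The ratio, which no scaling of libraries can change, was under 1 in all 11 mutant libraries and over 1 in all 4 of N2. The ratio of col-49 to col-38 was 0.411, 0.313 and 0.353 in let-7(n2853), 0.202 to 0.356 in lin-41(xe11), 0.164 to 0.303 in the double mutant and 0.122 to 0.296 in N2. Here the strains with xe11 overlapped N2, and let-7(n2853) lay above N2 throughout. Its ratio at 32 h rests on 51 counts of col-49 and 124 of col-38. These stood at 1.91 and 4.64 CPM, under their 28 h levels of 11.8 and 22.9 CPM, so that library preceded their late rise.

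**Figure D4:**
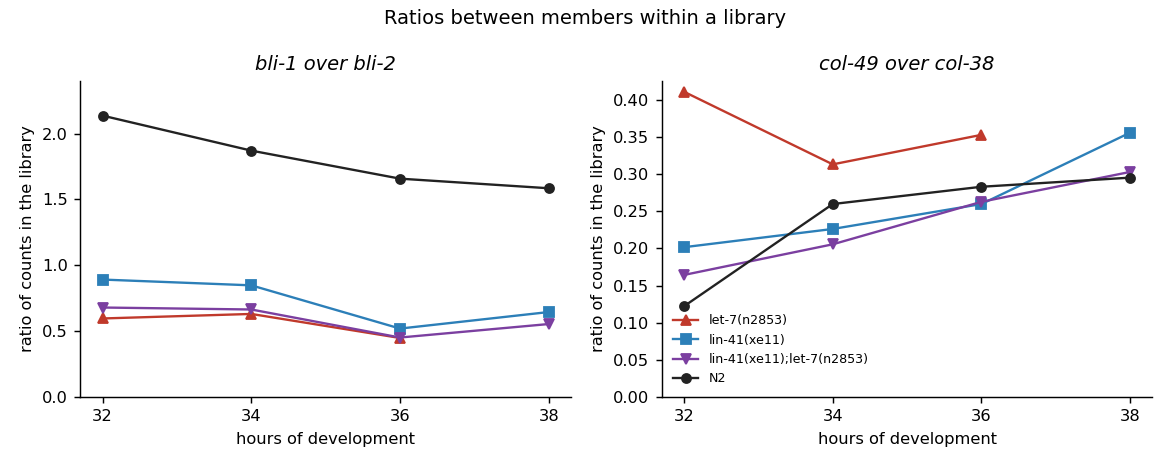
Counts of bli-1 over bli-2 (left) and of col-49 over col-38 (right) within each library, from 32 to 38 h, in let-7(n2853), lin-41(xe11), lin-41(xe11);let-7(n2853) and N2. For bli-1 over bli-2 the N2 libraries lie between 1.59 and 2.14 and every mutant library at 0.891 or less; for col-49 over col-38 the strains with xe11 overlap N2.

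The 5 RNAs followed each other closely over the 43 libraries, which share the time course. Pearson's r of log2(CPM + 1) was 0.991 between col-38 and col-49 and 0.953 between bli-1 and bli-2, and the lowest, between bli-2 and col-63, was 0.865. The 3 tested genes most like bli-1 by this measure were F55C10.4 (0.954), bli-2 (0.953) and Y43D4A.5 (0.947), and those most like bli-2 were col-110 (0.964), bli-1 (0.953) and usp-5 (0.949). For col-38 they were E01G4.6 (0.993), col-71 (0.991) and col-49 (0.991), and for col-49 they were col-38 (0.991), col-71 (0.988) and E01G4.6 (0.986). For col-63 they were WBGene00000686 (0.983), col-175 (0.982) and rol-1 (0.975). An onset at 32 h in N2 was found for 5 of the 133 collagen genes tested: bli-1, bli-2, col-38, col-71 and col-110.

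The other 128 collagen genes tested gave the setting. In let-7(n2853) against N2 over 28 to 36 h, 46 of them fell and 0 rose, with a median of -0.35 (edgeR). In lin-41(xe11) 11 fell and 0 rose (median -0.13; 4 called by DESeq2 and 0 by limma), and in the double mutant 19 fell and 0 rose (median -0.33; 16 by DESeq2 and 1 by limma). Collagens with an N2 peak up to 32 h (63 genes) had a median of 0.02 in let-7(n2853), the 8 with a peak at 34 h had -0.20, the 20 with a peak at 36 h had -1.14, and the 37 with a peak at 38 h had -2.01. bli-1 and bli-2, at -3.87 and -1.92, lay below all 8 others that peaked at 34 h, whose lowest was -1.15. Most of these 8 were unlike them in N2. col-102, col-2, col-37, col-40, col-51 and col-84 peaked at 20.0 to 65.5 CPM, against 1954 CPM for bli-1 and 1044 CPM for bli-2. lon-3 had its onset at 18 h, and only col-110 shared the onset of the strut collagens at 32 h. These 8 had a median of -1.38 and a lowest value of -3.13 in lin-41(xe11), and a median of -2.02 and a lowest value of -3.45 in the double mutant. In both strains bli-1 (-2.38 for lin-41(xe11), -2.89 for the double mutant) lay within their range, and bli-2 (-1.10 for lin-41(xe11), -1.27 for the double mutant) lay above their median. Of the others that peaked at 36 h, only col-175 (-7.65) and rol-1 (-6.14) lay below col-38, col-49 and col-63 (-3.92, -3.63 and -4.67) in let-7(n2853). The next lowest were col-138 (-3.60) and col-71 (-3.59).

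**Figure D5:**
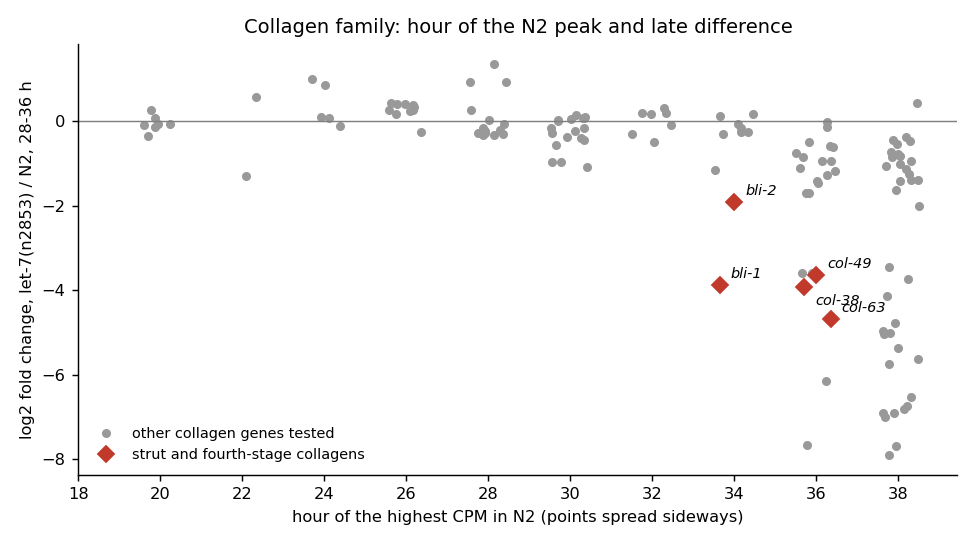
Each point is a collagen gene: the hour of its highest CPM in N2 (spread sideways to separate points) against its fitted log2 fold change in let-7(n2853) / N2 over 28 to 36 h, for 128 other collagens (circles) and the 5 described here (diamonds). bli-1 and bli-2 are the lowest points at 34 h. Of the other collagens that peak at 36 h, only col-175 and rol-1 lie below the numbered members.

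Genes for crosslinking and processing of cuticle collagen had smaller fitted changes. Of 6 tested genes of blister formation and cuticle crosslinking, 1 fell in let-7(n2853) late, the dual oxidase gene bli-3 (edgeR, -0.25 ± 0.07, adjusted p = 0.0113), and none rose, where 12.6% of all genes were called lower. DESeq2 called 1 of the 6 and limma 0, and bli-4, which encodes a proprotein convertase, had -0.17 ± 0.07 (0.0599). Of 10 genes of collagen synthesis and processing 3 fell, the prolyl 4-hydroxylase subunit genes dpy-18 (-0.47 ± 0.10, 0.00177) and pdi-2 (-0.44 ± 0.11, 0.00397) and the thioredoxin-like gene dpy-11 (-0.55 ± 0.17, 0.0186), and none rose. At 18 to 26 h, 4 of these 10 were already called lower in let-7(n2853), where 9.73% of all genes were called lower. In let-7(n2853) late, 0 of 6 furrow collagens and 0 of 10 other body-shape collagens were called (edgeR; 0 at an unadjusted p under 0.05, 0 by DESeq2 and 0 by limma in both lists). The adult collagens col-19 (-6.53 ± 0.62) and rol-1 (-6.14 ± 0.64), the tested pair of 4 listed, both fell in let-7(n2853); by edgeR 1 of them fell in lin-41(xe11) and both in the double mutant, while DESeq2 and limma each called 0 in either strain. In each strain with xe11, 0 crosslinking and 0 synthesis genes were called (edgeR; 0 at an unadjusted p under 0.05, 0 by DESeq2 and 0 by limma).

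Of 15 timing and epidermal regulators, 4 rose and 1 fell in let-7(n2853) late (edgeR; 5 called by DESeq2 and 6 by limma), where 23% of all genes were called. In lin-41(xe11) 1 rose (2 by DESeq2 and 1 by limma), against 0.361% of all genes. In the double mutant 2 rose (3 by DESeq2 and 2 by limma), against 0.888% of all genes. From 28 to 36 h lin-41 stood at 106 to 161 CPM in let-7(n2853) and at 28.3 to 44.5 CPM in N2. It stood at 41.9 to 102 CPM in lin-41(xe11) and 47.5 to 104 CPM in the double mutant. Its levels in let-7(n2853) and N2 did not overlap, which checks those labels for these hours. The levels in lin-41(xe11) overlapped both N2 and the double mutant, so lin-41 does not tell that strain's labels from theirs. mab-10, a cofactor of the adult-fate regulator LIN-29, fell in let-7(n2853) (-1.53 ± 0.26, adjusted p = 9.04e-05).

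Markers of the tissue that makes the cuticle stayed present. Summed over 4 epidermis markers, the late level was 73.5 to 131 CPM in let-7(n2853), 71.6 to 136 CPM in lin-41(xe11) and 86.8 to 129 CPM in the double mutant, against 88.4 to 135 CPM in N2, and 0 of the 4 were called in let-7(n2853) (edgeR; 1 at an unadjusted p under 0.05, 0 by DESeq2 and 0 by limma). Of 5 seam cell markers 0 were called there (edgeR; 0 at an unadjusted p under 0.05, 0 by DESeq2 and 0 by limma), with late sums of 19.5 to 124 CPM in let-7(n2853) and 14.7 to 118 CPM in N2. Of 11 germline and oocyte markers 8 fell in let-7(n2853) (edgeR; 5 called by limma), with late sums of 626 to 1271 CPM in let-7(n2853), 762 to 1730 CPM in lin-41(xe11), 731 to 1640 CPM in the double mutant and 683 to 1643 CPM in N2. The part of the germline in the collagen differences was not tested. In let-7(n2853), 2 of 4 intestine, 2 of 3 pharynx and 1 of 3 neuron markers fell by edgeR, where 12.6% of all genes were called lower. limma called 1 intestine, 1 pharynx and 0 neuron markers, and DESeq2 2, 2 and 0. No gene of these marker lists was at a count of 0 throughout any strain.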

How the data were processed

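Per the labels' protocols, RNA came from a Tri-Reagent extraction, ribosomal RNA was removed (Ribo-Zero), and ScriptSeq v2 was the library kit. The authors deposited raw counts per gene and a second table of log2 values; aligner, counter, strand setting, treatment of reads shared by related collagens and genome build are not given in the sources used here. Checked against the counts, each deposited log2 value was the log2 of the count scaled to a common total plus 8. let-7(n2853) had a common total of 26.10 M, while the other strains had 12.02 M, so the log2 values were shifted to 1 total before use. The 20182 rows were matched to symbols for 18778 IDs. No 2 libraries were duplicates (smallest chi-square per degree of freedom 4.25).

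The tests covered 13295 genes, those whose mean reached 1 CPM in the 40 libraries up to 36 h. Counts were fitted with edgeR 4.0.16 in R 4.3.3 (TMM, quasi-likelihood test) with the hour as a factor and a term per mutant in 18 to 26 h and in 28 to 36 h, 16 columns and 24 residual degrees of freedom. The hour of growth served as the replicate block. Time courses used a natural spline with 3 degrees of freedom in 1 strain. The Benjamini-Hochberg adjustment ran over every tested gene. Standard errors were taken from the log2 fold change and its F statistic. Late minus early was the difference between the 2 windows' terms. Alternatives were DESeq2 1.42.0, limma 3.58.1 on the log2 values, other size factors, no filter, no hour term, 3 windows, age in place of hour and each hour left out, and, added after seeing the data, leaving out lin-41(xe11) at 18 and 20 h. Ages came from correlation with N2 values interpolated linearly between hours, a method taken up, with calls already seen, because a smoother curve had put some libraries several hours off. The fits were also run on simulated data with known changes. Apart from those changes, each simulated gene had a constant mean over hours. The simulation therefore does not measure false calls where a strain difference varies between hours.

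The members, lists and tests were chosen with earlier results of these data known. Named genes were the members, the 3 genes most correlated with each, and up to 3 per list with the smallest p in let-7(n2853) against N2. bli-6 is not analysed here, and no sequences of these genes were used here.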

Additional observations from a re-analysis of the deposited data

Results flagged for a closer look

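Of 30 groups of 5 hourly log2 differences, 3 had a library far from the others; chance alone sets a library apart in about 1 in 20 groups. The lin-41(xe11) minus N2 difference of col-63 at 30 h was 3.97, while those of the other 4 late hours lay between -2.48 and -1.10. It rests on 5.14 CPM in lin-41(xe11) against 3 counts in N2; the 143 other late genes summed to 998.5 CPM in that library and 967 CPM in N2. The double mutant minus N2 difference of bli-1 at 22 h was -1.22, with the others between 0.31 and 0.45. The let-7(n2853) minus N2 difference of bli-1 at 18 h was -0.65, with the others between -1.36 and -1.16, at 2 counts against 3.

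The effect of n2853 differed between the lin-41 backgrounds by the test of the difference for bli-1 (-3.37), col-38 (-3.41), col-49 (-3.07) and col-63 (-3.77). Direct comparisons of strains give the parts: let-7(n2853) against N2, and the double mutant against lin-41(xe11), as described above.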

How the results depend on the processing

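Leaving out the hour as replicate block, which pairs strains by hour, changed most: the members called fell to 2 of 5 in let-7(n2853) against N2 at 28 to 36 h, and to 0 in lin-41(xe11), in the double mutant, in let-7(n2853) against it and in the difference between backgrounds. By DESeq2, 1 member was called in let-7(n2853) at 18 to 26 h, 0 in let-7(n2853) against the double mutant, 2 in the difference between backgrounds and 5 in the let-7(n2853) time course. limma called 1 in the double mutant late, and age in place of hour 1 in let-7(n2853) early. With 3 windows, 4 were called in let-7(n2853) against the double mutant; late minus early, 1 was called in let-7(n2853) and 2 in lin-41(xe11). A spline of 2 degrees of freedom called 5 in the let-7(n2853) time course. Without 1 hour at a time, the late counts ran from 0 to 2 in lin-41(xe11), 1 to 4 in the double mutant, 1 to 4 in let-7(n2853) against that strain and 2 to 5 in the difference between backgrounds. Late minus early they ran from 0 to 1 in let-7(n2853) and in lin-41(xe11), and in the let-7(n2853) time course from 2 to 5. The median early difference turned to -0.14 in lin-41(xe11) without its libraries of 18 and 20 h, a choice made after seeing the data, and in the double mutant it ran from -0.27 to 0.0909 without 1 hour at a time, above 0 without 22 h. The causes were not tested. In the 28 to 36 h comparisons with N2, the difference between backgrounds and let-7(n2853) against the double mutant, 450 values of single members under alternatives were computed, of which 395 kept direction and call, 37 lost the call, 18 gained it and 0 turned direction. Over all genes, calls in let-7(n2853) late ranged from 566 to 3563 against 3064, in lin-41(xe11) from 1 to 75 against 48, in the double mutant from 1 to 168 against 118 and in the difference between backgrounds from 89 to 1360 against 1055. A fixed 10 CPM as the onset threshold moved onsets to between 18 and 34 h. Depth limits col-63 before 30 h, where most libraries held under 10 counts.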
